A study of Mus musculus with 16 samples.

Results

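The genes described here are 43 mouse genes of the passage from G1 to S phase and of DNA replication, from the D-type cyclins to the DNA polymerases. They were measured in primary mouse lung fibroblasts, cells grown out of lung tissue and passaged at least 3 times, that were collected 48 hours after transfection with a small interfering RNA (siRNA). The 4 groups received a scrambled control siRNA (scr), an siRNA against Lox (siLox), one against Loxl1 (siLoxL1) or one against Loxl2 (siLoxL2), and each group holds 4 one-colour arrays. Lox, Loxl1 and Loxl2 encode lysyl oxidases, enzymes that cross-link collagen and elastin outside the cell. No strain, age or sex of the donor animals and no cell number at collection was used here, and nothing in the labels says whether the 4 arrays of a group came from separate cultures, so the p-values speak for the spread among these arrays, which may be technical. The series title speaks of exogenous expression, while the labels describe transfection with siRNA, and the targeted genes were lower in the matching groups.

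Members were chosen by name: every non-control probe whose gene name is one of the 43. There were 57 such probes, of which 54 passed the filter on dim probes (above background throughout at least 1 group of 4 arrays), and they covered 42 of the 43 genes among 22644 genes tested. Ccne2, one of the cyclin E genes, was well above background on only 1 siLoxL1 array. It did not pass the filter and was not tested in the main fits. The 42 other members were above background on all 16 arrays. For the 11 members with several detected probes, the brightest probe stood for the gene. Levels are log2 intensities relative to the 75th percentile of the same array, so a level of 0 is that percentile and a difference of 1 is a doubling, and levels are compared within a gene only. A gene passed, and is said to have risen or fallen, when its p from limma, a linear model fitted to all genes, was under 0.05 after Benjamini-Hochberg adjustment over all genes. Errors are the standard errors of that model, with 4 arrays in each group.

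Both scr and siLox were hybridised on 1 slide, and siLoxL1 and siLoxL2 on another slide, scanned on another day. The share of spots well above background was 49.2 to 52.3% on the first slide and 60.4 to 63.1% on the second, and 0 spots were saturated. Comparisons within a slide are therefore siLox minus scr and siLoxL1 minus siLoxL2, and in any comparison of siLoxL1 or siLoxL2 with scr the slide and the group cannot be told apart. Within a slide each group filled 1 row of arrays, scr and siLoxL1 row 1 and siLox and siLoxL2 row 2. In these comparisons the row on the slide and the group cannot be told apart either. Lox was at 13.2% of scr in siLox (log2 difference -2.92 ± 0.31 SE, adjusted p = 0.0032), and its level was 0.39, 0.89, 1.25 and 2.04 in siLox replicates 1 to 4. Loxl1 in siLoxL1 was at 44.9% of siLoxL2 (adjusted p = 0.000216). Loxl2 in siLoxL2 was at 47.8% of scr across slides, but the difference between siLoxL1 and siLoxL2 did not pass (siLoxL1 higher by 0.30, adjusted p = 0.0551), and in siLoxL1 it was at 59.0% of scr. Loxl1 and Loxl2 were also lower in siLox than in scr, at 71.3% and 61.0%.

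A cell commits to S phase when D-type cyclins bound to Cdk4 or Cdk6, and then cyclin E bound to Cdk2, phosphorylate the pocket proteins Rb1 and Rbl1. This frees E2F transcription factors, which drive the genes of the replication machinery. Origins are licensed when the origin recognition complex, Cdc6 and Cdt1 load the MCM helicase, which is then activated by Mcm10, Cdc45 and the GINS complex. In cultured fibroblasts D-type cyclins, Ccnd1 above all, are known to respond to growth factors and adhesion. In bulk RNA, fewer cells in S phase and less RNA of these genes per cell cannot be told apart.

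With the Lox siRNA most of the G1/S regulators were lower, while most of the replication machinery did not pass. Of the 12 regulators tested (cyclins D and E, their kinases, E2F factors and pocket proteins), 7 fell and 0 rose, with a median log2 difference of -0.38; at an unadjusted p under 0.05 the counts were 7 and 1. Of the 30 genes of the replication machinery, 1 fell and 3 rose, with a median of 0.08. Over all 42 members this makes 8 lower and 3 higher, beside 13.5% of all genes called lower and 11.5% called higher (25.0% in either direction). The share of members called, 26.2%, is thus near the background, and so is the median of the members, 0.011 against -0.049 for all genes. By role, 7 of 12 regulators were lower, and the difference between the roles was not tested. The arrays of the groups did not overlap for 8 members lower and 4 higher, beside 16.9% and 13.7% of all genes (30.6% in either direction).

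**Figure D1:**
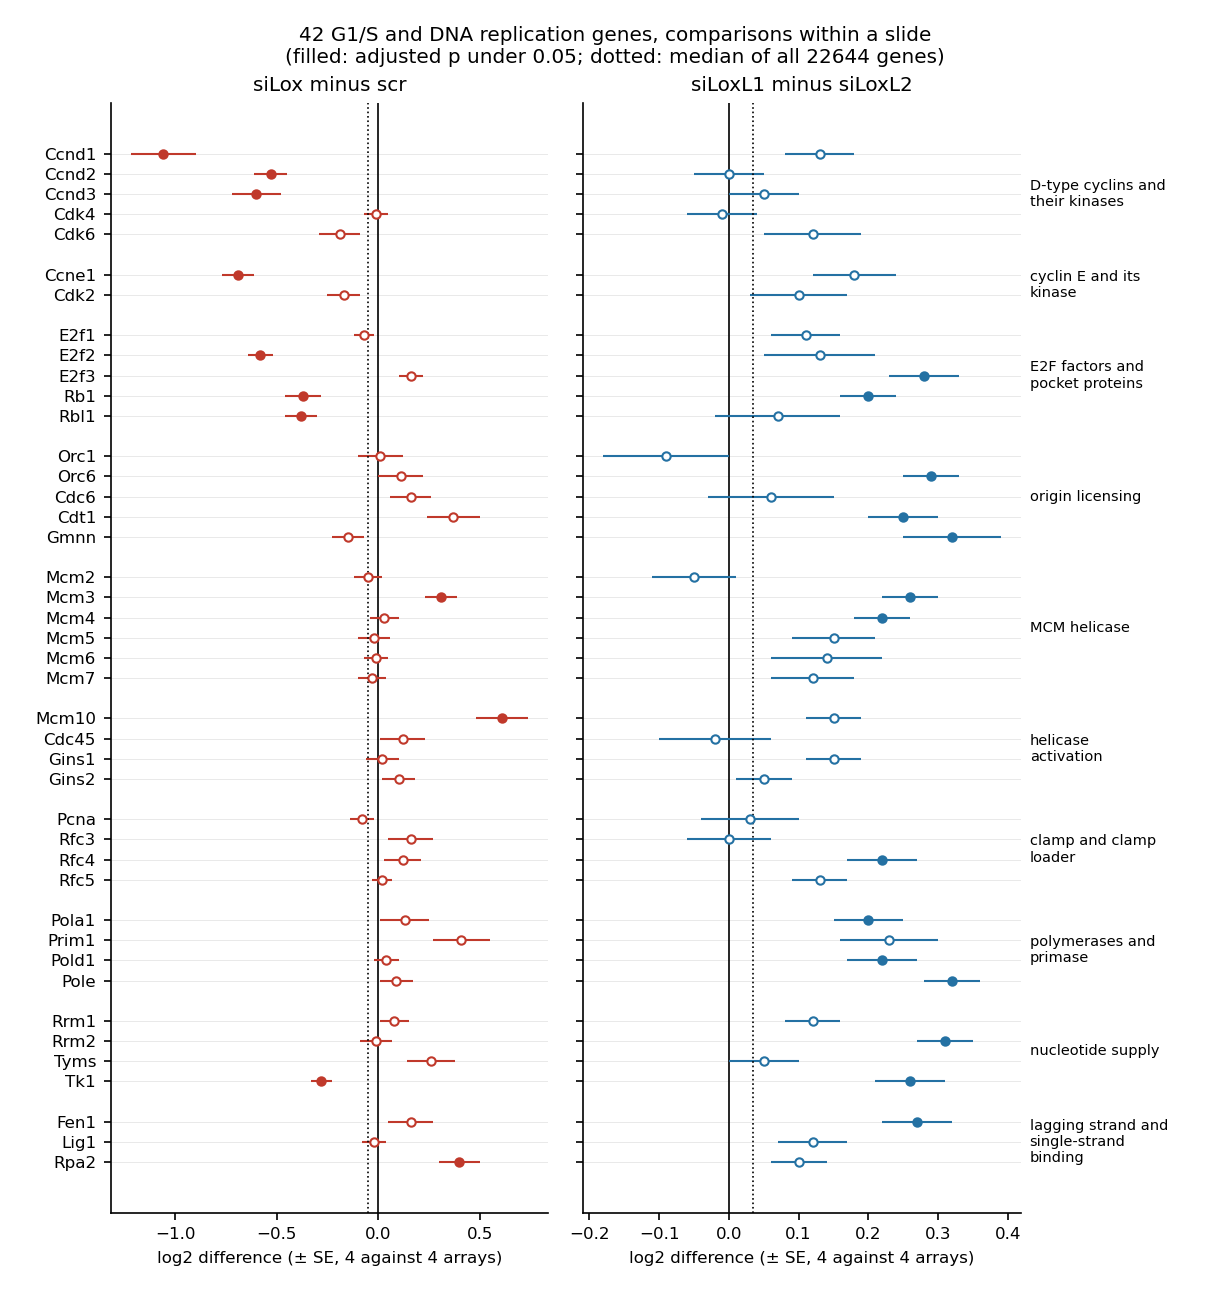
Log2 difference ± SE of 42 members, grouped by role, in siLox minus scr (left) and siLoxL1 minus siLoxL2 (right, narrower axis); filled points passed an adjusted p of 0.05, and the dotted line is the median of all genes. On the left 7 of the 8 filled points below 0 are cyclins, E2F factors or pocket proteins; on the right all 14 filled points lie above 0.

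Among the D-type cyclins, all 3 genes fell. Ccnd1 encodes cyclin D1, and its 60-base probe lies at chr7:152116202-152116261 (mouse build mm9, minus strand). Its level was 6.20, 5.71, 5.86 and 5.39 in scr and 4.60, 4.83, 4.68 and 4.80 in siLox. Every siLox array was below every scr array, and the scr arrays were spread over a wider range than the siLox arrays. The difference was -1.06 ± 0.16, a level of 0.479 of scr (adjusted p = 0.00846, exact permutation p = 0.0286, the smallest that 4 against 4 arrays allow).

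Ccnd3, which encodes cyclin D3, was at 6.56, 6.34, 6.30 and 6.01 in scr and at 5.57, 5.78, 5.62 and 5.83 in siLox. The groups did not overlap, with replicate 4 of each nearest to the other group. The difference was -0.60 ± 0.12 (adjusted p = 0.0167), and a second Ccnd3 probe gave -0.69. The later annotation in the files of the second slide places the brighter probe on chromosome 4 and not at its gene on chromosome 17. Ccnd2, which encodes cyclin D2, was at 5.97, 5.84, 5.84 and 5.66 in scr and at 5.23, 5.27, 5.26 and 5.42 in siLox, again without overlap. Its difference was -0.53 ± 0.08 (adjusted p = 0.00865). The partner kinases did not pass: Cdk4 differed by -0.01 ± 0.06 and Cdk6 by -0.19 ± 0.10. For Cdk4, 3 detected probes gave -0.04, -0.01 and 0.00.

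Ccne1 encodes cyclin E1, which acts after the D-type cyclins. Its level was 4.61, 4.59, 4.48 and 4.32 in scr and 3.74, 3.91, 3.81 and 3.78 in siLox, so the groups were apart by more than the spread within either. The difference was -0.69 ± 0.08, a level of 0.621 of scr (adjusted p = 0.00476), and the other Ccne1 probe gave -0.67. Its kinase Cdk2 differed by -0.17 ± 0.08 and did not pass (adjusted p = 0.147).

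The E2F factors did not move together. E2f2, an activating E2F, was at -0.41, -0.45, -0.55 and -0.44 in scr and at -0.97, -1.07, -1.12 and -1.00 in siLox. These are tight groups without overlap, and the difference was -0.58 ± 0.06 (adjusted p = 0.0028). E2f1 differed by -0.07 ± 0.05 and E2f3 by 0.16 ± 0.06, and neither passed. The 2 probes of E2f3 differ: the dimmer one gave 0.51 (adjusted p = 0.0199 over all probes).

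The pocket proteins, which hold E2F factors back, fell. Rb1 encodes the retinoblastoma protein and was at 1.42, 1.11, 1.25 and 1.04 in scr and at 0.87, 0.75, 0.84 and 0.89 in siLox, a difference of -0.37 ± 0.09 (adjusted p = 0.0281). Rbl1, which encodes p107, was at 0.79, 0.59, 0.71 and 0.62 in scr and at 0.46, 0.35, 0.19 and 0.18 in siLox, a difference of -0.38 ± 0.08 (adjusted p = 0.0202). Both were lower in every siLox array than in any scr array. A second Rbl1 probe, designed to another transcript accession, gave 0.05, so the fall of Rbl1 rests on 1 of 2 probes.

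The sequences of the promoters give the E2F sites that several members carry. Of the 43 members, 34 have a promoter in the RefSeq table (build GRCm38.p6), with no entry for Ccnd1, Ccnd2, Ccne2, Rb1, Gmnn, Mcm4, Gins1, Gins2 and Pole. The 250 bases upstream of each start were searched on both strands for TTTCCCGC, TTTGGCGC, TTTCGCGC and TTTGCCGC, the forms of the E2F site taken here. A site was found in 10 of the 34 members (29.4%), against 2.16% of all 27025 genes in the table, searched over the same length, and 1 of 25 mitosis genes. The Rbl1 promoter is printed because, of the 5 members that fell and have a promoter in the table, it alone holds a site. It lies at chr2:157204535-157204784 on the minus strand (GRCm38.p6), 5′ to 3′ with the site in capitals.
Rbl1: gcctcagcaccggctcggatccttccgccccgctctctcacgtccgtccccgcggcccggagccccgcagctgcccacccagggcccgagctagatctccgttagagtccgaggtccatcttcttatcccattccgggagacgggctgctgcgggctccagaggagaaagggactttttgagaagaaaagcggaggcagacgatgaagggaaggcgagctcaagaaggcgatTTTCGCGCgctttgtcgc

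The sites of the other 9 members are shown with up to 10 bases on each side, because 3 of these genes encode subunits of the MCM helicase, described with the comparisons across slides. Capitals that start with TTT read along the strand of the gene, those that end in AAA read along the other strand, and in Mcm5 and in the upstream site of Mcm6 sites of both strands overlap. In the same build and with the strand of the gene, they are Cdk2 at chr10:128705174-128705201 (minus), E2f3 at chr13:29986064-29986084 (minus), Cdc6 at chr11:98908003-98908030 (plus), Orc1 at chr4:108579417-108579444 (plus), Mcm5 at chr8:75109346-75109377 (plus). The others are Mcm6 upstream at chr1:128359794-128359825 (minus), Mcm6 downstream at chr1:128359735-128359762 (minus), Mcm7 at chr5:138172031-138172058 (minus), Rfc3 at chr5:151651209-151651228 (minus) and Pola1 at chrX:93632276-93632303 (minus).
Cdk2: accaggaactGCGGGAAAgttgtgcagc
E2f3: tgaaaagccgGCGGGAAAtct
Cdc6: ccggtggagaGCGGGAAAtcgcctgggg
Orc1: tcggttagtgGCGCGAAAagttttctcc
Mcm5: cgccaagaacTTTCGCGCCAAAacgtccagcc
Mcm6 upstream: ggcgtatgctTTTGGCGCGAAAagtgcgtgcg
Mcm6 downstream: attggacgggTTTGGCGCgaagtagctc
Mcm7: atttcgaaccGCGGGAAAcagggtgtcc
Rfc3: cgtcgcacgcTTTCGCGCtc
Pola1: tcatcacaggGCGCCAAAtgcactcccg

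Of these 10 genes only Rbl1 passed in siLox minus scr, and the 3 members that rose have no such site in the 250 bases. The CCAAT box (CCAAT, either strand), a common site for the factor NF-Y, was found in 20 of the 34 members (58.8%) and in 37.5% of all genes in the table. The cell cycle homology region, known from mitosis genes and searched as TTTGAA, was found in 5 of 34 members (14.7%) and in 18.3% of all genes in the table. A match is only a run of letters in this window, not a bound site.

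**Figure D2:**
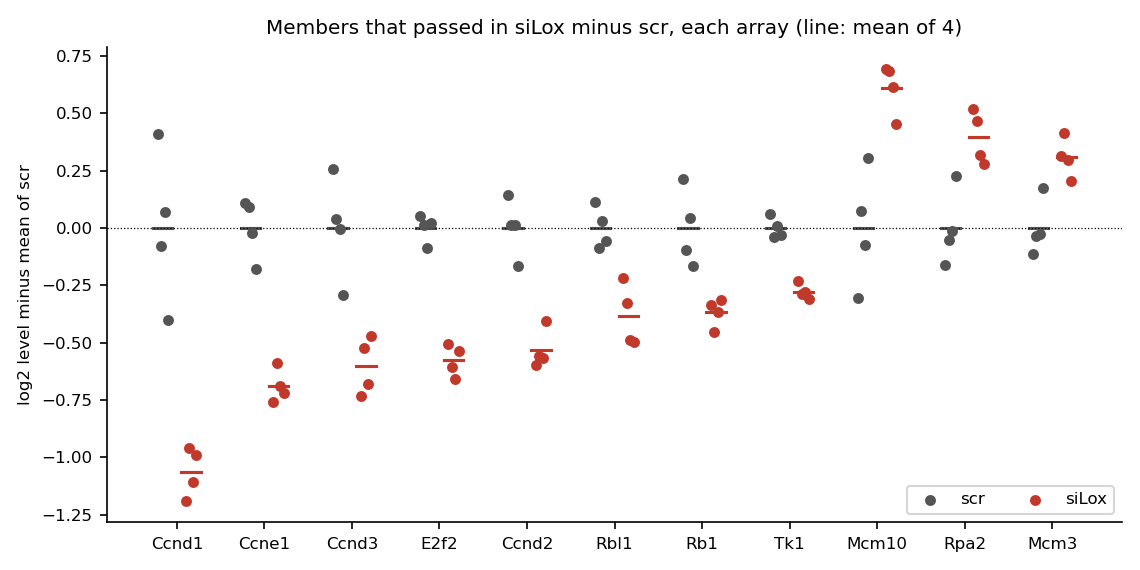
Log2 level of each array minus the mean of scr for the 11 members that passed in siLox minus scr; grey points are the 4 scr arrays, red points the 4 siLox arrays and lines their means. The groups of each of the 11 genes do not overlap, and the fall of Ccnd1 is the largest.

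In the replication machinery, 3 genes rose with the Lox siRNA and 1 fell. Mcm10, which helps to activate the helicase at origins, was at 2.13, 2.51, 2.36 and 2.74 in scr and at 3.13, 3.12, 3.05 and 2.89 in siLox. All siLox arrays were above all scr arrays, with scr replicate 4 nearest to them, and the difference was 0.61 ± 0.13, or 1.53-fold (adjusted p = 0.0196). Rpa2, a subunit of the complex that coats single-stranded DNA, was at 0.20, 0.31, 0.35 and 0.59 in scr and at 0.88, 0.83, 0.68 and 0.64 in siLox, a difference of 0.40 ± 0.10 (adjusted p = 0.029). Here too scr replicate 4 came close to the lowest siLox array. Mcm3, a subunit of the MCM helicase, was at 4.41, 4.49, 4.50 and 4.70 in scr and at 4.84, 4.94, 4.82 and 4.73 in siLox, a difference of 0.31 ± 0.08 (adjusted p = 0.0319).

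Tk1, thymidine kinase of the nucleotide salvage pathway, was the member of the machinery that fell. Its level was 3.56, 3.46, 3.51 and 3.47 in scr and 3.27, 3.21, 3.22 and 3.19 in siLox. Both groups are narrow and far apart beside their spread, with a difference of -0.28 ± 0.05 (adjusted p = 0.0137) and -0.33 by a second probe. The other enzymes of nucleotide supply did not pass, with Rrm1 and Rrm2, the subunits of ribonucleotide reductase, at 0.08 and -0.01, and thymidylate synthase Tyms at 0.26 ± 0.12.

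The other 26 genes of the machinery did not pass. The remaining 5 MCM subunits lay between -0.05 (Mcm2) and 0.03 (Mcm4), each with an SE of 0.06 to 0.08. Cdt1, the loading factor, and Prim1, the primase subunit, had the largest differences among those that missed the threshold, at 0.37 ± 0.13 (adjusted p = 0.077) and 0.41 ± 0.14 (adjusted p = 0.0689). For both genes the groups overlapped through scr replicate 4 alone. Gmnn, the inhibitor of Cdt1, differed by -0.15 ± 0.08, and the sliding clamp Pcna by -0.08 ± 0.06.

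Other genes of the pathway, from lists that do not hold the members, moved in both directions, except those of mitosis. Of 21 further G1/S regulators tested, 6 fell and 2 rose (28.6% and 9.52%, beside 13.5% and 11.5% of all genes). The transcription factor Myc rose by 0.60 ± 0.13 (adjusted p = 0.0206) and Tfdp1, the dimer partner of E2F, by 0.30. The repressor E2f6 fell by 0.59, and the kinase inhibitors Cdkn2d and Cdkn1b (p27) fell by 0.53 and 0.51. The inhibitor Cdkn1a (p21) differed by 0.22 ± 0.08 and did not pass (adjusted p = 0.0727). Of 44 further replication genes, 9 rose and 3 fell (20.5% and 6.82%), with a median of 0.109. Cdc7, the kinase that fires origins, was not well above background on any scr array and was on all 4 siLox arrays, so it was at least 1.66-fold higher (the siLox mean against the dimmest signal well above background, or its own if higher; adjusted p = 0.0163). Its activator Dbf4 rose by 0.67, and Dscc1, part of an alternative clamp loader, by 0.54. Rpa3, Rpa1 and the polymerase epsilon subunit Pole2 fell by 0.34, 0.28 and 0.27. Of 30 mitosis genes, 10 fell (33.3%) and 0 rose (17 and 0 at an unadjusted p under 0.05). The largest falls were those of Cenpf, Ccnb2 and Anln at -0.62, -0.56 and -0.45. Cenpf was above background on only 2 of the 4 siLox arrays, so its value and its rank rest on a group near background.

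Within scr, replicate 4 lay nearest to the siLox arrays for 8 of the 11 members called, and within siLox replicate 4, the array with the highest Lox level, lay nearest to scr for 6 of 11. Without scr replicate 4 the count of members higher was 6, and it was 1 without scr replicate 1 or 2 and 0 without scr replicate 3 or siLox replicate 1, 2 or 3. The count of members lower was 5 without siLox replicate 3 and 6 to 8 without any other array. Mcm10 lost its call without siLox replicate 1, 2 or 3 or scr replicate 3, and Rpa2 and Mcm3 without any array but the fourth of either group. Rb1, Rbl1 and Ccnd3 lost theirs without siLox replicate 3, Rb1 also without siLox replicate 1 or 2 or scr replicate 3, and Rbl1 also without siLox replicate 2 or scr replicate 3. Ccnd1, Ccnd2, Ccne1, E2f2 and Tk1 passed whichever single array was left out. With the replicate number, which is also the column of the array on its slide, as a block, 0 members passed (unadjusted 3 higher and 8 lower). Of all genes 3 passed in that fit.

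Cell type markers moved beside these differences, and their part in them was not tested. All 10 of 10 fibroblast markers were detected. Of these, 4 were lower in siLox, among them Thy1 at -0.84 and Pdgfrb at -0.79. At an unadjusted p under 0.05 the counts were 6 lower and 0 higher. All 10 differences lay below 0, with a median of -0.448. The mean level of the list was 5.10 to 5.48 in scr and 4.43 to 5.15 in siLox. Of 10 leukocyte and macrophage markers, 1 was higher (Marco, 1.08), and at an unadjusted p under 0.05 the counts were 4 higher and 0 lower. The median of this list was 0.416, with 8 markers above 0 and 2 below. Its mean level was -0.731 to 0.181 in scr and 0.036 to 0.280 in siLox. Of 9 epithelial markers only 3 were tested, since Epcam, Cdh1, Sftpc, Sftpb, Ager and Foxj1 were not well above background, and of 9 endothelial markers Tie1, Cldn5 and Erg were not. Of the 3 epithelial markers tested, Krt8 rose (0.27, adjusted p = 0.0485), and Krt18 (-0.36) and Scgb1a1 (-0.22) did not pass. Flt1 fell among the endothelial markers (-0.80), and 4 of 7 mesothelial markers fell while Krt19 rose (0.77).

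In the comparison of the Loxl1 with the Loxl2 siRNA, all members that passed were higher in siLoxL1. These were 14 of 42, and 0 were lower, beside 6.10% of all genes called higher and 2.70% called lower (8.81% in either direction). Of the 12 regulators 2 were higher, and of the 30 genes of the machinery 12. The differences were small, from 0.20 to 0.32, and the median of the members was 0.127 against 0.034 for all genes. At an unadjusted p under 0.05 the counts were 24 higher and 0 lower. For 21 members every siLoxL1 array was above every siLoxL2 array, and for 0 members below, beside 14.7% and 5.62% of all genes (20.3% without overlap in either direction).

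Among the licensing genes, Gmnn, the inhibitor of Cdt1, had the largest difference. It was at 1.16, 0.90, 1.00 and 0.89 with the Loxl1 siRNA and 0.74, 0.56, 0.72 and 0.66 with the Loxl2 siRNA, a difference of 0.32 ± 0.07 (adjusted p = 0.036). The call was lost without any single array except siLoxL1 replicate 4. A dimmer probe named for Gmnn lies on the opposite strand of the gene, so it was not read as a second measure of it. Orc6, a subunit of the origin recognition complex, read 3.99, 3.95, 3.96 and 3.99 with the Loxl1 siRNA and 3.73, 3.61, 3.73 and 3.64 with the Loxl2 siRNA, a difference of 0.29 ± 0.04 (adjusted p = 0.0103). Its siLoxL1 arrays were almost equal. Cdt1 was higher by 0.25, while Cdc6 and Orc1, at 0.06 and -0.09, did not pass.

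The catalytic subunits of all 3 replicative polymerases were higher. Pole, the catalytic subunit of polymerase epsilon, which copies the leading strand, read 3.02, 2.98, 3.08 and 3.04 with the Loxl1 siRNA and 2.70, 2.70, 2.73 and 2.72 with the Loxl2 siRNA. The gap between the groups was far wider than the spread within them, and the difference was 0.32 ± 0.04, or 1.25-fold (adjusted p = 0.00595). A second probe gave 0.36. Pold1 and Pola1, the catalytic subunits of polymerases delta and alpha, were higher by 0.22 ± 0.05 and 0.20 ± 0.05. Both lay near the threshold: over all probes the adjusted p was 0.0423 for Pold1 and 0.0594 for Pola1. The primase subunit Prim1, at 0.23 ± 0.07, did not pass.

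Rrm2, the regulated subunit of ribonucleotide reductase, read 5.04, 5.05, 4.97 and 5.01 with the Loxl1 siRNA and 4.73, 4.73, 4.70 and 4.67 with the Loxl2 siRNA, a difference of 0.31 ± 0.04 (adjusted p = 0.00623). Tk1 read 3.40, 3.28, 3.41 and 3.31 with the Loxl1 siRNA and 3.06, 3.03, 3.18 and 3.07 with the Loxl2 siRNA, a difference of 0.26 ± 0.05 (adjusted p = 0.0217). Neither pair of groups overlapped. The later annotation in the files of the second slide places the Rrm2 probe on chromosome 19 and not at its gene on chromosome 12, so this value carries that doubt. A second Tk1 probe gave 0.09, and Tk1 lost its call without siLoxL1 replicate 1 or 3 or siLoxL2 replicate 2 or 4.

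Mcm3 read 4.26, 4.31, 4.32 and 4.28 with the Loxl1 siRNA and 3.97, 4.04, 4.11 and 4.01 with the Loxl2 siRNA, a difference of 0.26 ± 0.04 (adjusted p = 0.0138). Mcm4 was higher by 0.22, while the other 4 MCM subunits lay between -0.05 and 0.15 and did not pass. Fen1, the nuclease that trims Okazaki fragments, read 4.24, 4.22, 4.12 and 4.11 with the Loxl1 siRNA and 3.90, 3.92, 3.97 and 3.83 with the Loxl2 siRNA, a difference of 0.27 ± 0.05 (adjusted p = 0.0196). Its call was lost without siLoxL1 replicate 2 or siLoxL2 replicate 4. Of the clamp loader, Rfc4 was higher by 0.22, a call near the threshold (adjusted p = 0.0504 over all probes). A second Rfc4 probe gave 0.14 (adjusted p = 0.255 over all probes). The clamp Pcna differed by 0.03 ± 0.07.

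Of the regulators, E2f3 and Rb1 passed. E2f3, an activating E2F, read 2.15, 2.24, 2.24 and 2.14 with the Loxl1 siRNA and 1.84, 1.87, 1.95 and 2.00 with the Loxl2 siRNA, a difference of 0.28 ± 0.05 (adjusted p = 0.0197). A second probe gave 0.08, and the call was lost without siLoxL1 replicate 2 or 3 or siLoxL2 replicate 2. Rb1 was higher by 0.20 ± 0.04 (adjusted p = 0.0261). The cyclins did not pass: Ccnd1 differed by 0.13 ± 0.05, Ccnd2 by 0.00 ± 0.05, Ccnd3 by 0.05 ± 0.05 and Ccne1 by 0.18 ± 0.06.

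**Figure D3:**
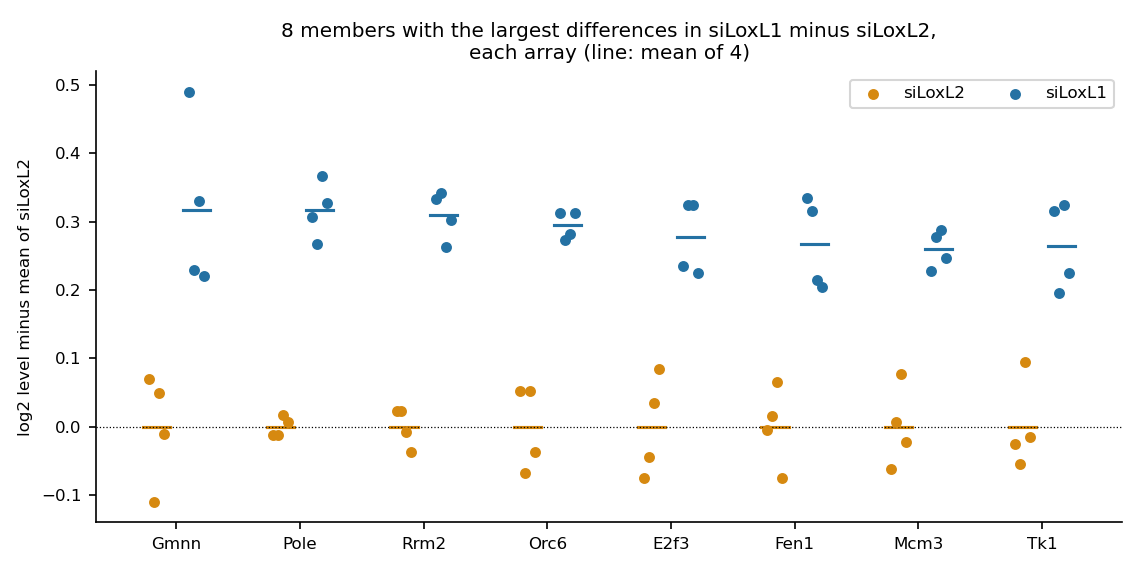
Log2 level of each array minus the mean of siLoxL2 for the 8 members with the largest differences in siLoxL1 minus siLoxL2; orange points are the 4 siLoxL2 arrays, blue points the 4 siLoxL1 arrays and lines their means. The groups of the 8 genes do not overlap, and the mean differences lie between 0.26 and 0.32.

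In the lists of related genes those that passed were higher in siLoxL1, as were 69.3% of the calls over all genes. Of 21 further G1/S regulators, 5 were higher and 0 lower, led by the atypical E2F gene E2f8 (0.35), Skp2 (0.30), which marks p27 for breakdown, and the phosphatase gene Cdc25a (0.29). Of 44 further replication genes, 5 were higher and 0 lower, led by Dscc1 (0.28), the fork protection gene Timeless (0.24) and Dut (0.23), which removes dUTP. Of 30 mitosis genes, 11 were higher and 0 lower, led by Cenpe (0.35), Kif20a (0.32) and Ect2 (0.30). The shares called higher were 23.8% of the regulators, 11.4% of the replication genes and 36.7% of the mitosis genes, beside 6.10% of all genes. At an unadjusted p under 0.05, 2 of the regulators, 1 of the replication genes and 0 of the mitosis genes were lower. Cdkn1a, Cdkn1b and Myc differed by 0.01, 0.08 and -0.04 and did not pass.

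The count of 14 moved with the arrays and the scaling. It was 8, 6 and 7 without siLoxL1 replicate 1, 2 and 3, and 9, 6, 8 and 6 without siLoxL2 replicates 1 to 4, with 0 lower in each. Under quantile normalization it was 9, and the share of all calls that were higher was 56.1% there against 69.3% by the main scaling. With the replicate number, which is also the column on the slide, as a block the count was 6. Beside it, 1.97% of all genes were called higher, and E2f3 and Fen1 were among the members that lost their calls. Pole, Rrm2 and Mcm3 passed under each alternative run on them. Of the markers, 0 of 10 fibroblast markers passed (1 higher at an unadjusted p under 0.05), although the Fn1 spot read -2.60 in siLoxL1 replicate 4 and 8.25 to 8.33 in the other 3, and 1 of 10 leukocyte and macrophage markers was lower. Of 6 endothelial markers 2 were lower, Vwf at -0.50 and Tek at -0.86. Tek was above background on 3 of 4 siLoxL1 arrays and passed the filter on dim probes only through siLoxL2, where it is high. The filter thus favours a lower value of Tek in siLoxL1, and its call carries little weight. Of 7 mesothelial markers Wt1 was higher (0.26). Their part in the result was not tested.

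Across slides, most of the replication machinery was lower than in scr, 21 of 30 genes in siLoxL1 and 22 in siLoxL2, and the slide and the siRNA cannot be told apart here. In siLoxL1 minus scr, 26 members were lower and 10 higher, beside 21.9% of all genes called lower and 43.3% called higher (65.1% in all). Fitted on the 8 arrays of these 2 groups alone, 20 were lower and 9 higher, beside 20.5% and 41.5% of all genes. In siLoxL2 minus scr, 27 were lower and 7 higher, beside 23.4% and 41.4% (64.8% in all). Fitted on its own 8 arrays, 25 were lower and 6 higher, beside 21.7% and 39.4%. The medians of the members were -0.223 and -0.374, against 0.194 and 0.169 for all genes. The shares of all genes and the medians change with the background correction, as given below. These comparisons share the scr arrays, so they are given side by side and not as support for each other.

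**Figure D4:**
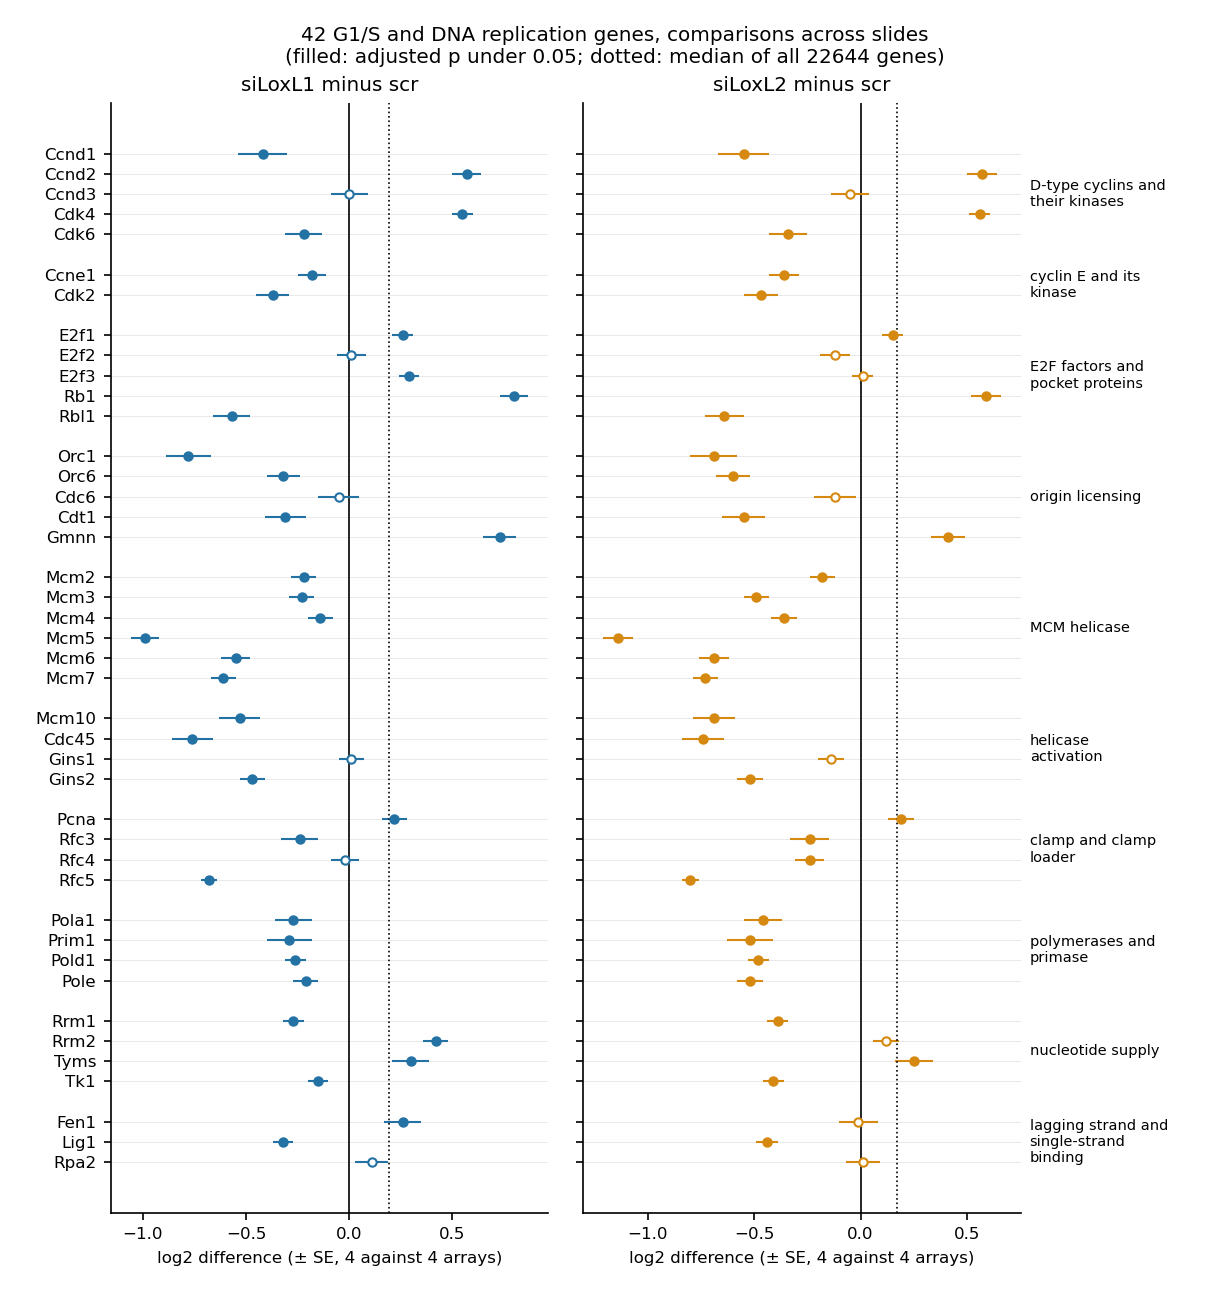
Log2 difference ± SE of 42 members, grouped by role, in siLoxL1 minus scr (left) and siLoxL2 minus scr (right), which share the scr arrays and lie across slides; filled points passed an adjusted p of 0.05, and the dotted line is the median of all genes. All 6 MCM subunits lie below 0 in both panels, while Ccnd2, Cdk4 and Rb1 lie above 0.5.

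All 6 MCM subunits were lower, with differences from -0.14 (Mcm4) to -0.99 (Mcm5) in siLoxL1 and from -0.18 (Mcm2) to -1.14 (Mcm5) in siLoxL2. The scr arrays had Mcm5 at 3.85, 3.85, 3.79 and 3.90. The siLoxL1 arrays read 2.82, 2.78, 2.91 and 2.92 for it and the siLoxL2 arrays 2.57, 2.78, 2.81 and 2.67. In siLox, on the slide of scr, it was at 4.01, 3.83, 3.75 and 3.71, so it separated the slides and not the arrays within the first one. Among the 42 members Mcm5 had the lowest difference in both comparisons. Mcm6 and Mcm7, which like Mcm5 hold the sites printed above, had differences of -0.55 and -0.61 for siLoxL1 and of -0.69 and -0.73 for siLoxL2, though the probe of Mcm7 is placed on another chromosome in the files of the second slide. The clamp loader subunit Rfc5, whose promoter has no such site, was at -0.68 and -0.80. Of the 10 members with an E2F site 8 were lower in each of these comparisons, and so were 26 and 27 of all 42.

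The genes of initiation and synthesis were mostly lower as well. In siLoxL1 Orc1 was at -0.78 and Orc6 at -0.32, against -0.69 and -0.60 in siLoxL2. Cdc45, which travels with the helicase, was at -0.76 in siLoxL1 and -0.74 in siLoxL2. The 4 genes of the polymerases and primase were lower in both, at -0.29 to -0.21 and at -0.52 to -0.46. Gmnn was an exception, at 0.73 and 0.41. The clamp Pcna was at 0.22 and 0.19, but it turned to -0.02 in siLoxL2 under quantile normalization, and its probe is placed on another chromosome in the files of the second slide. Among the nucleotide genes, Rrm2 was higher in siLoxL1 (0.42) and at 0.12 in siLoxL2, where it did not pass. Tyms was higher in both (0.30 and 0.25), but both calls were lost under normexp and that in siLoxL2 also under quantile normalization. Fen1 was higher in siLoxL1 (0.26), a call lost under quantile normalization, and at -0.01 in siLoxL2.

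The regulators split across slides. Ccnd2 was at 0.57 and 0.57, Cdk4 at 0.55 and 0.56 and Rb1 at 0.80 and 0.59, all higher. The lowest values over the alternative settings were 0.24 and 0.30 for both Ccnd2 and Cdk4, and 0.70 and 0.53 for Rb1. The calls held, but the size for Ccnd2 and Cdk4 depends on the processing. Rb1 read 1.98, 2.05, 1.95 and 2.03 with the Loxl1 siRNA and 1.74, 1.85, 1.79 and 1.81 with the Loxl2 siRNA, above every array of the other slide. Ccnd1 was at -0.42 and -0.55 and Rbl1 at -0.57 and -0.64, both lower. Ccne1 was at -0.18 and -0.36 by its brightest probe but at -0.98 and -0.87 by the other, so the size of its fall depends on the probe. The clamp loader gene Rfc4 was at -0.02 and -0.24 by its brightest probe and at -0.56 and -0.70 by another.

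**Figure D5:**
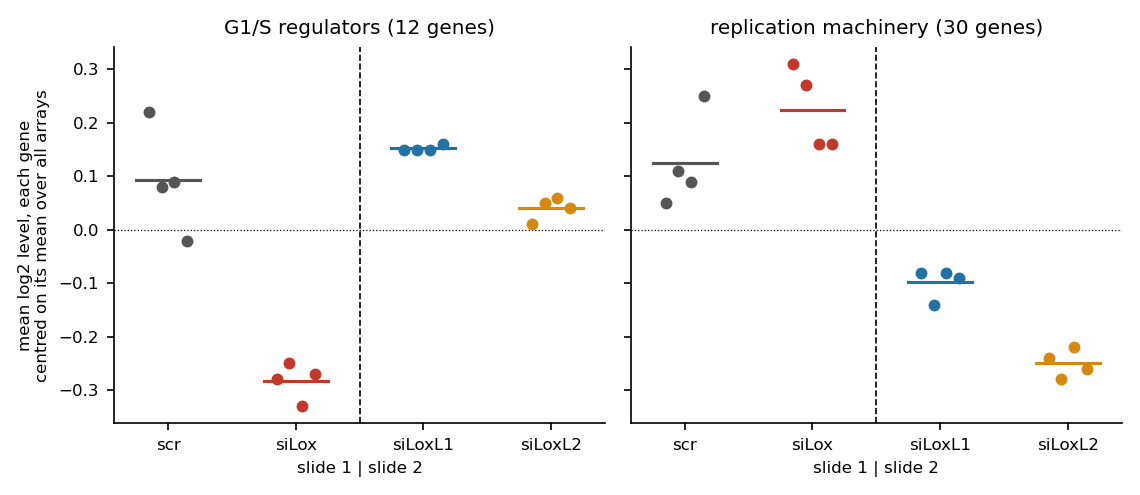
Mean log2 level per array of the 12 G1/S regulators (left) and the 30 genes of the replication machinery (right), each gene centred on its mean over 16 arrays; points are arrays, bars group means, and the dashed line parts the slides. The regulators are lowest in the 4 siLox arrays (-0.33 to -0.25), and the machinery is below 0 in all arrays of the second slide and above 0 in all arrays of the first.

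By array, the centred mean of the 12 regulators was -0.02 to 0.22 in scr, -0.33 to -0.25 in siLox, 0.15 to 0.16 in siLoxL1 and 0.01 to 0.06 in siLoxL2. The mean of the 30 genes of the machinery was 0.05 to 0.25, 0.16 to 0.31, -0.14 to -0.08 and -0.28 to -0.22 in the same order. The siLox arrays thus stood apart from the rest for the regulators, and the slides stood apart for the machinery.

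Of the related lists, the mitosis genes differed most from all genes across slides. In siLoxL1 80% and in siLoxL2 96.7% of them were lower, beside 21.9% and 23.4% of all genes. Of the further replication genes 63.6% and 75% were called in either direction, and of the further regulators 61.9% in both comparisons. All genes were called in 65.1% and 64.8%, so of these shares only the 75% lies above the background. Of 30 mitosis genes 24 were lower in siLoxL1 and 29 in siLoxL2, led by the kinase Plk1 (-1.35 and -1.60) and Kif23 (-0.97 and -1.12), then by Ttk in siLoxL1 (-0.95) and Bub1 in siLoxL2 (-0.95). Of 44 further replication genes, 13 and 20 were lower (29.5% and 45.5%, beside 21.9% and 23.4% of all genes). Among them were Orc5 at -1.20 and -0.96 and Ticrr at -1.05 and -1.23. In the same list 15 and 13 were higher (34.1% and 29.5%, beside 43.3% and 41.4% of all genes). These were led by the small polymerase delta subunit Pold4 (1.24 and 1.27) and the reductase subunit Rrm2b (0.75 and 0.66), then by Rpa3 in siLoxL1 (0.64) and Gins4 in siLoxL2 (0.50). Of 21 further regulators, 5 and 7 were lower (23.8% and 33.3%), led by E2f5 (-1.23 and -1.09), cyclin A2 (Ccna2, -0.78 and -0.91) and Myc (-0.63 and -0.60). The 8 and 6 that were higher were led by the kinase inhibitors Cdkn1c (1.06 and 1.23), Cdkn2a (0.66 and 0.39) and Cdkn2d (0.52 and 0.59). Cdkn1a was at 0.20 (adjusted p = 0.0454) and 0.19 (adjusted p = 0.054), and Cdkn1b, at 0.17 and 0.09, did not pass.

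The background correction moves these values. With normexp, a model-based correction, the median of all genes was -0.07 and -0.09 in place of 0.19 and 0.17, and the share of calls that were higher was 45.7% and 44.1% in place of 66.4% and 63.9%. Relative to all genes, the median of the members was then -0.09 and -0.23 in place of -0.42 and -0.54. By count, 21 and 24 of 42 members were lower under normexp, beside 43.6% and 44.2% of all genes. Higher were 9 and 6 members, beside 36.6% and 34.9% of all genes. The excess of members called lower over all genes was thus much smaller than by the main correction. The MCM subunits lay below 0 under each scaling and background alternative, with Mcm4 in siLoxL1 (adjusted p = 0.173) and Mcm2 in siLoxL2 (adjusted p = 0.211) not past the threshold under normexp. Markers of other cells also differed between the slides: Krt8 and Krt18, keratins of simple epithelia and mesothelium, had differences of -4.24 and -3.29 for siLoxL1 and of -4.36 and -3.41 for siLoxL2, while Krt19, another such keratin, was at 2.33 and 2.39. Of 7 mesothelial markers 5 were lower and 2 higher in both (Krt19 and Msln, the latter at 0.66 and 0.62), with a mean level of the list of 0.444 to 0.507 in scr and -0.455 to -0.131 on the second slide. Their part in the result was not tested.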

How the data were processed

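Total RNA of 16 samples was labelled with Cy3 and hybridised to one-colour arrays with 62976 spots, per the labels' protocols. Per the file headers, the scanner files hold intensity values per spot that were background subtracted by Agilent's Feature Extraction software, version 10.7.3.1, with flags of 0 or 1 per spot deposited beside them. The authors' deposited value table holds log2 values; its sorted columns differed by at most 0.00787 over the non-control probes and their correlation with log2 of the scanner intensities was 0.998 to 0.999, so it was treated as quantile normalized and used as an alternative.

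Outlier spots were left out, spots of a probe averaged, and each array's 75th percentile over non-control probes subtracted from its log2 values (8.67 to 9.03 on slide 1, 9.74 to 9.90 on slide 2). Probes counted as detected, and were kept, if every array of some group flagged them well above background (32476 probes, 58.3%; 46 dropped for a missing value), and the brightest stood for a gene. Positions are in mm9, from the files of slide 1. The files of slide 2 carry a later annotation, in which 3475 probes have another gene name and 4 member probes (of Mcm7, Pcna, Rrm2 and Ccnd3) lie on another chromosome. Genes were tested with limma 3.58.1 in R 4.3.3 (lmFit, contrasts.fit, eBayes), with Benjamini-Hochberg adjustment over all 22644 genes and a threshold of 0.05. Each comparison within a slide used its own 8 arrays, since the spread differed between slides (median SD of the members 0.113 in scr and 0.0852 in siLox, 0.0667 in siLoxL1 and 0.0631 in siLoxL2), and those across slides used all 16. ± is the standard error from limma with 4 arrays per group. The exact permutation test was two-sided over 70 splits. The fit was tested on simulated data. The number of arrays limits the precision.

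The members and all lists were chosen with earlier results of these data known. Values per array were given for members that passed within a slide, up to 8 in each direction; other pathway genes were named by the 3 largest differences in each direction among those that passed, plus Cdkn1a, Cdkn1b and Myc, with 1 gene not reported here; promoters were printed for members that fell in siLox and hold an E2F site, and the short windows were added after the values were seen. Alternatives were normexp, quantile normalization, scaling to the median, the value table, other filters and probe rules, a replicate block, other sets of arrays and leaving out each array.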

Additional observations from a re-analysis of the deposited data

Results flagged for a closer look

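Among 168 gene and group pairs (42 members in 4 groups of 4 arrays), 5 held an array far from the other 3, by Dixon's gap ratio at 95%; chance flags about 1 in 20 groups. Rrm2 in scr replicate 1 was at 4.71, against 4.54 to 4.56 in the other scr arrays. Ccnd1 in siLoxL1 replicate 3 was at 5.28, against 5.39 to 5.40, and Ccne1 in the same array was at 4.37, against 4.30 to 4.31. Mcm10 in siLoxL1 replicate 4 was at 1.96, against 1.89 in the other 3. Cdk4 in siLoxL2 replicate 1 was at 6.18, against 6.31 to 6.33.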

How the results depend on the processing

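In siLox minus scr, 3 members were higher and 8 lower; without any filter on dim probes 1 was higher, with all 16 arrays 7, and with the fourth replicate of both groups left out 6. Leaving out 1 array gave 0 to 6 higher, 5 to 8 lower and medians of -0.014 to 0.034. In siLoxL1 minus siLoxL2 the 14 members higher became 9 under quantile normalization and 9 with the value table of the authors, 5 without a filter and 8 with all 16 arrays, and 6 to 10 without 1 array, with 0 lower throughout and medians of 0.128 to 0.146. With the replicate number as a block, siLox minus scr called 0 members (unadjusted 3 higher and 8 lower) and 3 of all genes; siLoxL1 minus siLoxL2 called 6 higher. Same-numbered arrays correlated at -0.19 to 0.00 on slide 1 and at 0.04 to 0.22 on slide 2. On slide 2 each siLoxL1 array correlated best with the siLoxL2 array of its own number. The replicate number is also the column of the array on its slide in every group, so number and column cannot be told apart. No label gives the number as a pairing of cultures, and the main fits do not use it. Without probes placed on another chromosome, 39 members were tested, with 3 higher and 8 lower, and with 13 higher. Across slides, the median of the members in siLoxL1 minus scr was -0.161 under normexp, -0.352 under quantile normalization and -0.352 with the value table; in siLoxL2 minus scr it was -0.525 under quantile normalization and -0.526 with the value table, with 4 members higher in both. Leaving out 1 array gave 10 to 11 higher, 21 to 24 lower and medians of -0.249 to -0.172 in siLoxL1 minus scr, and 6 to 8, 25 to 28 and -0.413 to -0.365 in siLoxL2 minus scr. Pcna in siLoxL2 minus scr was -0.02 under quantile normalization (adjusted p = 0.833) and -0.02 with the value table (adjusted p = 0.819). The cause of these shifts was not tested. Signal over background limits Ccne2, which was not tested in the main fits.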
